A study of Homo sapiens with 6 samples.

Results

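The matrix metalloproteinases and their tissue inhibitors, the TIMPs, were followed here as 10 genes: MMP1, MMP2, MMP3, MMP7, MMP9, MMP13, MMP14, TIMP1, TIMP2 and TIMP3. They were chosen by name, with earlier results of these data known. Every probe set whose only platform gene symbol is one of these was taken, which gave 20 of 54613 probe sets and 10 of 19775 measured genes. Both groups were made from MDA-MB-231, an established human breast cancer line without hormone receptors or HER2 amplification, at passage 4 and resistant to puromycin after infection with pSM2 retroviral vectors and 2 weeks in 1.0 μg/ml of the drug. The 3 knockdown clones carried a short hairpin RNA against WASF3, an activator of branched actin growth, and the 3 control clones carried the empty vector or a hairpin against GFP. The vector inside each single clone is not named in the sources used here. Each array is read as 1 clone grown from a single infected cell, so p-values measure the spread between these clones, and a trait that a clone had before infection cannot be told apart from one that came with the hairpin.

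Metalloproteinases are zinc endopeptidases that are made as inactive proenzymes and cut the proteins of the extracellular matrix, growth factor precursors and one another. MMP1 and MMP13 are collagenases, MMP2 and MMP9 gelatinases, MMP3 a stromelysin, MMP7 the short matrilysin, and MMP14 (MT1-MMP) a collagenase anchored in the plasma membrane. TIMPs bind the active site of these enzymes, and TIMP2 also links MMP14 to the MMP2 proenzyme, which MMP14 then cleaves. In breast tumours much of the metalloproteinase RNA is known to come from fibroblasts and leukocytes of the stroma, which a cell line lacks.

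Of the genes described below, MMP14, TIMP1 and TIMP3 read lower in all knockdown clones on most or all of their probe sets, so the 250 bases before their annotated starts are shown. They are RefSeq sequences of GRCh38.p14, 5′ to 3′ on the plus strand, at chr14:22836335-22836584 for MMP14, chrX:47582186-47582435 for TIMP1 and chr22:32801455-32801704 for TIMP3. Capitals mark matches on either strand to the GC box (GGGCGG, or CCGCCC when read from the other strand), to the AP-1 motif TGANTCA, to its variant TGAGTAA, or to the TATA box TATAAA.
MMP14: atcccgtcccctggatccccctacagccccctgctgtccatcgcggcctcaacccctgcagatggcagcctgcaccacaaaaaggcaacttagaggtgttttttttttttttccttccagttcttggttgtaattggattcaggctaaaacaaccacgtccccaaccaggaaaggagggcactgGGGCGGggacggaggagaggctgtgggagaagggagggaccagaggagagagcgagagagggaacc
TIMP1: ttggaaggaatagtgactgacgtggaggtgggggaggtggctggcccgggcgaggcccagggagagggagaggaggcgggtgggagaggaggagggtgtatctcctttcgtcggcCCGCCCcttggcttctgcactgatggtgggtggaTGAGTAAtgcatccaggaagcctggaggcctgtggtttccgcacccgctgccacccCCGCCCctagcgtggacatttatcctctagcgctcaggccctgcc
TIMP3: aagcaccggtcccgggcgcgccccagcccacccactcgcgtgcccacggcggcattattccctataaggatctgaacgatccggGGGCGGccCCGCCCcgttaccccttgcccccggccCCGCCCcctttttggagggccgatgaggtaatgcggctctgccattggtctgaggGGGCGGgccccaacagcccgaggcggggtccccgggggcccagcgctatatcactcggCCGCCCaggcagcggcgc

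Each of these windows held a GC box, with 1 match in MMP14, 2 in TIMP1 and 5 in TIMP3. Of 35116 windows of the same length in the table, 42.6% held one. The GC box of MMP14 began 66 bases before the annotated start, and those of TIMP1 135 and 45 bases before it. TIMP1 also held 1 TGAGTAA, 101 bases before the start, which 2.21% of all windows hold. The TGANTCA form (6.57% of all windows) and TATAAA (10.7%) were not found in the 3 windows. The window of MMP7, the fourth of 4 members with a sequence in the table, held 1 TGANTCA 67 bases and 1 TATAAA 30 bases before the start. The GC content was 56.8% for MMP14, 64.8% for TIMP1, 72.4% for TIMP3 and 33.6% for MMP7. These matches describe the sequence and say nothing of binding. MMP1 and TIMP2, with higher means in knockdown clones, had no sequence available, so no contrast with the lower genes can be drawn.

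Values are log2 signals made by the authors with RMA. Because this table has no detection calls, a probe set was called above background in a group when all 3 of its arrays exceeded the 95th percentile of probe sets for genes of tissues unlike breast (rod, liver, muscle, pituitary, pancreas and others). This list had 48 measured genes with 88 probe sets, and the threshold lay between 5.81 and 6.06 over the 6 arrays. Of the 20 probe sets, 13 were above background in both groups, against 35.5% of all probe sets. They belonged to 5 genes: MMP1, MMP14, TIMP1, TIMP2 and TIMP3. The other 7, for MMP2, MMP3, MMP7, MMP9 and MMP13, were above it in neither group. The same 13 were found with each of the 3 other thresholds tried, although against olfactory receptor probe sets MMP9 was above it in the control group alone. A level is not compared between genes, since each probe set has its own response.

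The targeted gene, WASF3, read 5.24 ± 0.65 (SD, n = 3) in knockdown and 6.59 ± 0.18 in control clones on its only probe set. Its 3 control values were above background and its 3 knockdown values were not, so its knockdown level is only bounded. With each knockdown array set at its background threshold, WASF3 was at least 1.64-fold lower in knockdown clones. The fitted difference did not pass (limma adjusted p = 0.102). All 7 markers of the line (VIM, CD44, EGFR, CAV1, AXL, KRT18, ITGB1) were above background in both groups, and of 6 luminal and receptor genes GATA3 and ERBB3 were. Of other cells, 1 of 7 fibroblast markers (COL1A1), 1 of 8 leukocyte markers (CSF1R) and 1 of 5 endothelial markers (PECAM1) were above it, while DCN and PTPRC were not. The summed signal of the fibroblast markers was 258 to 307 in knockdown and 277 to 287 in control clones, that of leukocyte markers 240 to 263 and 257 to 273, and that of endothelial markers 205 to 344 and 317 to 331. The 3′ minus 5′ index, a sign of RNA quality from the control probe sets of GAPDH and ACTB, was 1.80 ± 0.27 in knockdown and 1.29 ± 0.17 in control clones, and each knockdown clone exceeded each control clone. Values with this index as a covariate (the RNA quality covariate) are therefore given for the members and for the genes named from each list. Left out are PRSS2, FOS and SNAI2, which are named only for the size of their differences. As the index separates the 2 groups, RNA quality and group cannot be told apart here, and these values do not decide between them.

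None of the 20 probe sets passed in limma at an adjusted p under 0.05, where 0.558% of all probe sets did. Before adjustment, p was under 0.05 for 10 of 20 against 14% of all probe sets, with 2 higher (7.25% of all) and 8 lower (6.79% of all). The 2 groups did not overlap for 11 probe sets against 21% of all, with 2 higher (9.85% of all) and 9 lower (11.1% of all). These 20 probe sets fall on 10 genes and share targets, so they are not 20 separate observations. All 10 with an unadjusted p under 0.05 were among those above background, a class in which 24% of all probe sets have such a p and in 31.7% of which the groups do not overlap. Taking each gene by its brightest probe set, the means of MMP1 and TIMP2 were higher and those of MMP14, TIMP1 and TIMP3 lower in knockdown clones, and the means of the 5 genes not above background were all lower. Of all genes above background in neither group 58.5% had a lower mean, and of the 48 genes of the background list 33 had. The median difference over the 10 members was −0.12, beside −0.01 over all genes and −0.08 over the background list. It lies midway between MMP2 and MMP9, both not above background, and so describes no expressed member. No gene of the 10 was called, where 0.738% of all genes were.

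**Figure D1:**
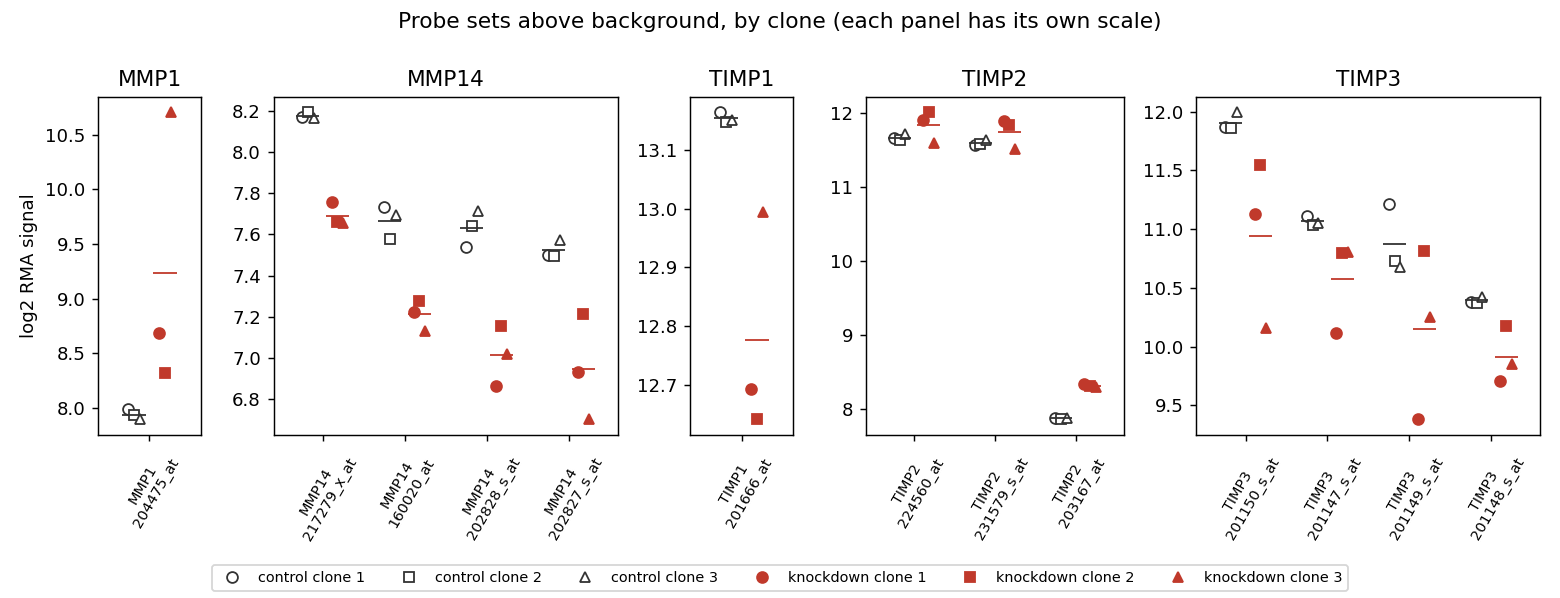
Log2 RMA signal (vertical axis) of the 13 probe sets above background, by gene and probe set, in 3 control clones (open) and 3 knockdown clones (red), with group means as lines and a scale of its own for each gene. All 4 MMP14 probe sets lay lower in every knockdown clone, MMP1 was highest in knockdown clone 3 at 10.71, and TIMP2 was higher in every knockdown clone on 203167_at alone.

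Among the collagenases, MMP1, the secreted interstitial collagenase that opens the triple helix of fibrillar collagen, was above all control clones in each of the knockdown clones. On its only probe set it read 8.68, 8.32 and 10.71 in knockdown clones 1, 2 and 3 and 7.99, 7.93 and 7.90 in control clones 1, 2 and 3. Knockdown clone 3 stood far above the other two, so that the clones were at 167%, 131% and 680% of the control mean signal. The SD was 1.28 in knockdown and 0.05 in control clones. The difference was 1.30 on the log2 scale (SE 0.55, 95% confidence interval from 0.02 to 2.58), which did not pass (limma adjusted p = 0.348). The exact two-sided permutation p was 0.1, and no smaller p is possible with 3 clones a group. Without knockdown clone 3 the difference of MMP1 fell to 0.56 and passed (adjusted p = 0.0468). In that fit 2493 of all 54613 probe sets passed, against 305 in the reported fit, so a pass there is not particular to MMP1. Over all 13 alternative fits the adjusted p of MMP1 ranged from 0.0468 to 0.649 and its difference from 0.56 to 1.86, the last with the RNA quality covariate.

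MMP1 lies in a run of 9 metalloproteinase genes on chromosome 11 that reads MMP7, MMP20, MMP27, MMP8, MMP10, MMP1, MMP3, MMP12 and MMP13. The other 8 genes of this run were all measured, and none was above background in both groups. Their single values ran from 2.59 to 4.18, and their differences from −0.16 (MMP3) to 0.15 (MMP27). The smallest adjusted p among them was 0.527 in limma. MMP1 thus stood alone above background in its gene neighbourhood. Whether its difference exceeds that of its neighbours was not tested, since their low signals would hide one.

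MMP14, which cuts collagen at the cell surface and activates the MMP2 proenzyme, read below all control clones in each knockdown clone on all 4 of its probe sets. On the brightest, 217279_x_at, it read 7.76, 7.66 and 7.66 in knockdown clones 1, 2 and 3 and 8.17, 8.20 and 8.17 in control clones. On 160020_at the values were 7.22, 7.28 and 7.13 against 7.73, 7.58 and 7.69. On 202828_s_at they were 6.86, 7.16 and 7.02 against 7.54, 7.64 and 7.72. Here knockdown clone 1 was the lowest, whereas on the other 3 sets clone 3 was, level with clone 2 on the brightest. On 202827_s_at MMP14 read 6.93, 7.21 and 6.70 against 7.50, 7.50 and 7.57.

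The differences of MMP14 were −0.48 (SE 0.08, limma adjusted p = 0.0582) on 217279_x_at, −0.46 (SE 0.09, adjusted p = 0.0841) on 160020_at, −0.62 (SE 0.11, adjusted p = 0.0605) on 202828_s_at and −0.58 (SE 0.13, adjusted p = 0.118) on 202827_s_at. None passed. The knockdown signal was 71.5%, 72.9%, 65.1% and 67.0% of control on these sets, with 95% confidence intervals (not adjusted for the number of probe sets) that all excluded 0 difference, the widest from −0.89 to −0.26. The gap between the groups, 0.28 to 0.41, was wider than the SD within either group on each of them. By clone, the median over the 4 sets was 69.8%, 74.1% and 67.1% of control in knockdown clones 1, 2 and 3. Without knockdown clone 3, 217279_x_at (−0.47, adjusted p = 0.0330) and 202828_s_at (−0.62, adjusted p = 0.0321) of MMP14 passed. Without knockdown clone 1 they passed too (−0.52, adjusted p = 0.0376, and −0.54, adjusted p = 0.0497). Of all 54613 probe sets, 2493 passed without clone 3 and 1465 without clone 1, against 305 in the reported fit. Over all alternatives the adjusted p of 217279_x_at ranged from 0.0330 to 0.316 and that of 202828_s_at from 0.0321 to 0.359. That of 160020_at ranged from 0.0540 to 0.389 and that of 202827_s_at from 0.0648 to 0.434, so neither of these passed in any alternative. With the RNA quality covariate the 4 differences of MMP14 were −0.57, −0.40, −0.47 and −0.53 (adjusted p from 0.227 to 0.434).

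The gelatinases and the remaining secreted enzymes gave signals that were not above background, from 2.64 to 5.64 over all their probe sets and arrays. MMP9, the gelatinase stored by neutrophils and induced in many tumours, read 5.10, 5.06 and 5.64 in knockdown clones 1, 2 and 3 and 5.33, 5.42 and 5.40 in control clones. Clones 1 and 2 lay below the controls and clone 3 above them, and no direction is shared. MMP2, the gelatinase that MMP14 activates, had 3 probe sets with differences of −0.11, 0.13 and −0.27, and the groups did not overlap for the first (201069_at), by a gap of 0.02. MMP3, which activates other proenzymes, differed by −0.16, the epithelial matrilysin MMP7 by −0.09, and the collagenase MMP13 by −0.01. The adjusted p of these 7 probe sets ranged from 0.426 to 0.990 in limma. With the RNA quality covariate MMP7 moved to −0.38 and MMP13 to −0.32, MMP3 gave −0.11, MMP9 0.01, and the 3 sets of MMP2, in the same order, −0.16, −0.03 and −0.27. A change in these genes could go unseen at such signals, so that no statement on their direction is made.

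**Figure D2:**
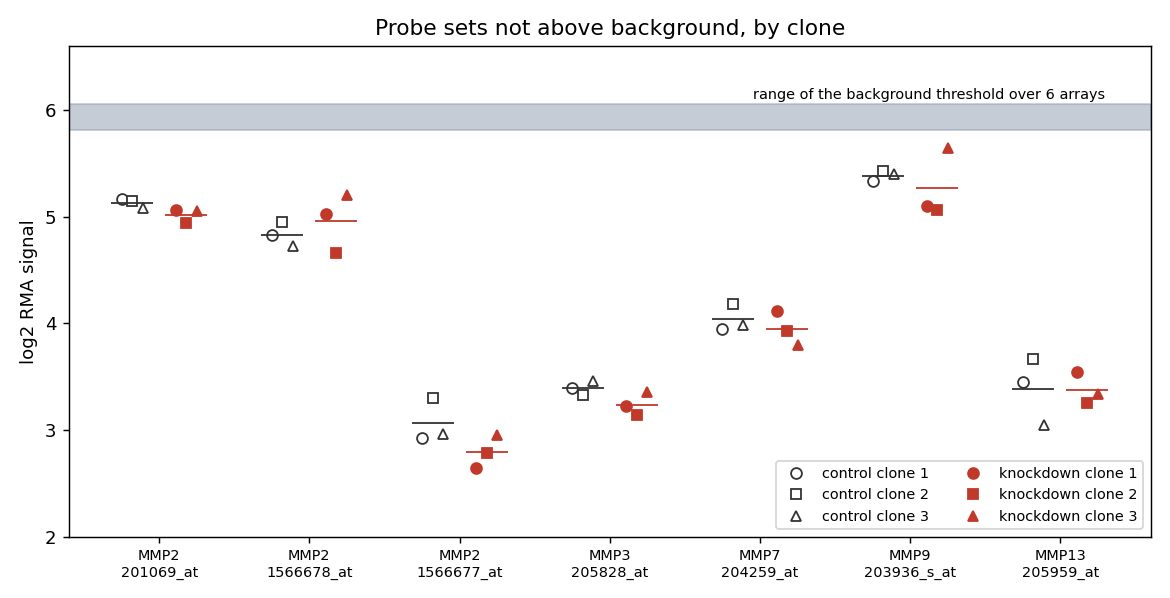
Log2 RMA signal (vertical axis) of the 7 probe sets not above background in 3 control clones (open) and 3 knockdown clones (red), with group means as lines and the range of the background threshold over the 6 arrays (5.81 to 6.06) as a grey band. All values lie under the band, the highest being MMP9 in knockdown clone 3 at 5.64.

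Of the inhibitors, TIMP1, a secreted inhibitor of most soluble metalloproteinases but a weak one of MMP14, read 12.69, 12.64 and 12.99 in knockdown clones 1, 2 and 3 against 13.16, 13.15 and 13.15 in control clones on its only probe set. Every knockdown clone was lower, clone 3 by the least, at 72.7%, 70.1% and 89.5% of the control mean. The difference of TIMP1 was −0.38 (SE 0.11, 95% confidence interval from −0.64 to −0.12) and did not pass (limma adjusted p = 0.195, exact permutation p = 0.1). Without knockdown clone 3 it was −0.49 and passed (adjusted p = 0.0272), as did 2493 of all 54613 probe sets in that fit. The adjusted p of TIMP1 ranged from 0.0272 to 0.589 over the alternatives, and the difference was −0.29 with the RNA quality covariate.

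TIMP2, which inhibits MMP14 and also serves it as the receptor for the MMP2 proenzyme, had 3 probe sets that did not give the same picture. On 203167_at it read 8.33, 8.30 and 8.29 in knockdown clones 1, 2 and 3 and 7.88, 7.85 and 7.88 in control clones. The clones were tight within each group and did not overlap. The difference of TIMP2 there was 0.44 (SE 0.08, 95% confidence interval from 0.25 to 0.62, adjusted p = 0.0669 in limma), or 135% of control. On 224560_at the values were 11.91, 12.01 and 11.60 against 11.66, 11.63 and 11.71, and on 231579_s_at 11.89, 11.83 and 11.51 against 11.57, 11.59 and 11.64. On both, knockdown clones 1 and 2 were above the controls and clone 3 was below them. The differences of TIMP2 on these sets were 0.17 (SE 0.12, adjusted p = 0.596) and 0.15 (SE 0.12, adjusted p = 0.642), with 95% confidence intervals from −0.11 to 0.45 and from −0.13 to 0.42. Without knockdown clone 3 the value on 203167_at was 0.45 and passed (adjusted p = 0.0339), as did 2493 of all 54613 probe sets in that fit. Over the alternatives the adjusted p of 203167_at ranged from 0.0339 to 0.339. With the RNA quality covariate the 3 differences of TIMP2, in the order in which they are given here, were 0.42, 0.12 and −0.01. Which parts of the transcript the probe sets match was not used here.

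TIMP3, the TIMP that binds to the extracellular matrix and also inhibits ADAM17, had lower means in knockdown clones on all 4 probe sets. On the brightest, 201150_s_at, it read 11.13, 11.55 and 10.16 in knockdown clones 1, 2 and 3 and 11.86, 11.86 and 11.99 in control clones. On 201147_s_at TIMP3 read 10.11, 10.79 and 10.81 against 11.11, 11.04 and 11.05, and on 201148_s_at 9.71, 10.17 and 9.85 against 10.38, 10.37 and 10.43. On these 3 sets the groups did not overlap. On 201149_s_at it read 9.38, 10.81 and 10.25 against 11.21, 10.73 and 10.68, where knockdown clone 2 lay between the controls. The clone that was lowest changed with the probe set, clone 3 on the brightest and clone 1 on the other 3.

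The differences of TIMP3 were −0.96 (SE 0.31, limma adjusted p = 0.230), −0.49 (SE 0.19, adjusted p = 0.292) and −0.48 (SE 0.13, adjusted p = 0.154) on 201150_s_at, 201147_s_at and 201148_s_at, and −0.73 (SE 0.34, adjusted p = 0.397) on 201149_s_at. None passed, in the reported fit or in any of the 13 alternatives. The median over the 4 sets was 54.9%, 84.3% and 66.8% of control in knockdown clones 1, 2 and 3. Without knockdown clone 3 the brightest set of TIMP3 gave −0.57, and without knockdown clone 1 201147_s_at gave −0.27 and 201149_s_at −0.34. With the RNA quality covariate the direction did not hold on all sets: TIMP3 gave −1.10 on 201150_s_at and −0.23 on 201148_s_at, but 0.07 on 201147_s_at and 0.38 on 201149_s_at. Knockdown clone 1, the lowest on all sets but the brightest, also had the highest index, 2.11 against 1.62 and 1.66 in knockdown clones 2 and 3. Its part in these differences was not tested.

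**Figure D3:**
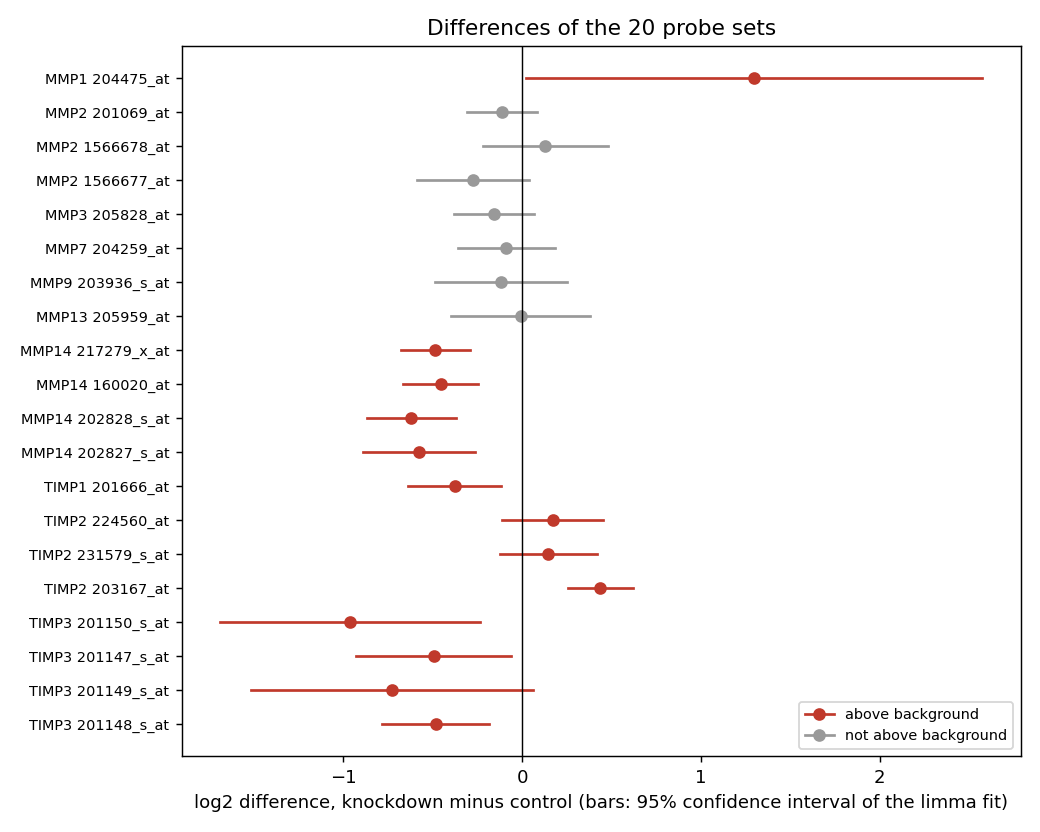
Log2 difference, knockdown minus control (horizontal axis), of the 20 probe sets with the 95% confidence interval of the limma fit, in red where above background and in grey where not. The intervals of all 4 MMP14 probe sets lie below 0, that of MMP1 runs from 0.02 to 2.58, and all 7 grey intervals include 0.

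The knockdown clones were more scattered than the control clones on these arrays in general. The SD was larger among knockdown clones for 12 of the 13 member probe sets above background, with a median of 0.22 against 0.04, and for 89.4% of all 19371 probe sets above background, with a median of 0.21 against 0.06. The exception among the members was 160020_at of MMP14. As limma takes 1 spread for both groups, weights by group were tried as well, and 202828_s_at of MMP14 then passed (adjusted p = 0.0486) as the only member probe set.

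**Figure D4:**
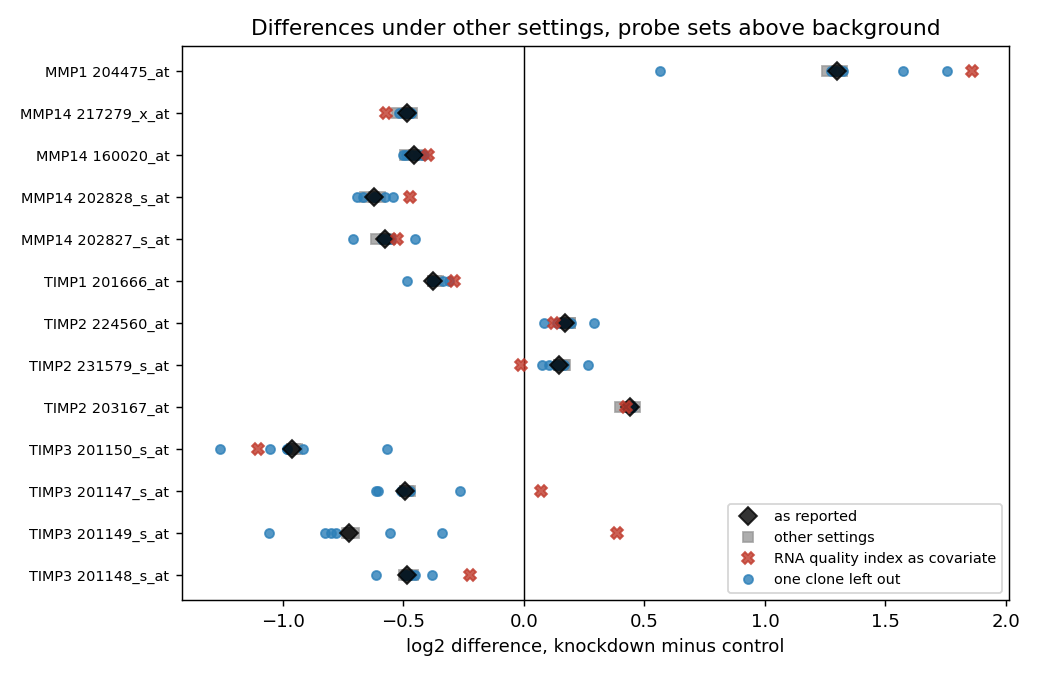
Log2 difference, knockdown minus control (horizontal axis), of the 13 probe sets above background as reported (black), with 1 clone left out (blue), with the RNA quality covariate (red) and under the other settings (grey). MMP14 stayed between −0.71 and −0.40 on all sets, MMP1 moved between 0.56 and 1.86, and 2 of the 4 TIMP3 sets crossed 0 with the covariate.

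Genes with profiles most like a member over the 6 arrays were found for the 3 members above background with the widest range: MMP1, TIMP3 and MMP14, each by its brightest probe set, among 10066 other genes above background in both groups. For MMP1 they were VPS4A (Pearson r = 0.999), RAP1GAP2 (0.997) and DUSP28 (0.997), all highest in knockdown clone 3. RAP1GAP2 read 8.46, 8.10 and 10.06 in knockdown clones 1, 2 and 3 and 7.83 to 7.93 in control clones. For TIMP3 they were IRF1 (r = 0.999), an interferon-induced transcription factor, DTX3L (0.997) and RNASET2 (0.997), all lowest in knockdown clone 3. These genes resemble 1 probe set of TIMP3 and not the gene as a whole: with 201148_s_at their r was 0.82 to 0.86, and with the remaining 2 sets, which like it were lowest in knockdown clone 1, it was 0.44 to 0.59. For MMP14 they were THEMIS2 (r = 0.998), ARHGEF10L (0.998) and SLC2A4RG (0.997). Of these 9 genes THEMIS2 passed in limma (−0.65, adjusted p = 0.0417), and with the RNA quality covariate it did not (−0.81, adjusted p = 0.184). With 6 arrays from 2 groups such values are common: 183, 194 and 222 genes had an r over 0.95 with MMP1, TIMP3 and MMP14. The points share the arrays and the group difference. A gene picked for its likeness to MMP14 over these arrays also has groups that lie apart, so the call of THEMIS2 is no separate evidence.

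This list and those below were chosen with earlier results of these data known, so their counts beside all genes are no test. The other metalloproteinases and TIMP4 were mostly dim. Of 16 measured genes 3 (MMP15, MMP19 and MMP28) were above background in both groups, and none was called (limma). Before adjustment, p was under 0.05 for 0 higher and 1 lower, against 9.11% higher and 7.67% lower over all genes. Their median difference was −0.05, near the −0.01 of all genes. TIMP4 gave −0.29 (adjusted p = 0.304), MMP21 −0.20 (adjusted p = 0.412), MMP19 −0.14 (adjusted p = 0.515) and MMP27 0.15 (adjusted p = 0.534). These became −0.13, −0.29, −0.14 and −0.02 with the RNA quality covariate. Only MMP19 of these 4 was above background, at 6.07 ± 0.03 in knockdown and 6.21 ± 0.04 in control clones.

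Activators, cofactors and other inhibitors of metalloproteinases included 18 genes above background of 26 measured. None passed in limma. Before adjustment, p was under 0.05 for 0 higher and 8 lower, against 9.11% higher and 7.67% lower over all genes. The median was −0.23. A lower mean was found for 20 of the 26 against 52.4% of all genes, and for 15 of the 18 above background against 46.6% of all genes above it. The plasminogen activator PLAT, whose product plasmin cleaves metalloproteinase proenzymes, gave −0.70 (SE 0.14, adjusted p = 0.0795). The urokinase receptor PLAUR gave −0.64 (SE 0.14, adjusted p = 0.0975), with the same sign on its 3 probe sets. TFPI2, a Kunitz inhibitor of plasmin and of several metalloproteinases, gave −0.75 (SE 0.17, adjusted p = 0.115). The tetraspanin CD63, a TIMP1-binding surface protein, gave −0.37 (SE 0.09, adjusted p = 0.140). With the RNA quality covariate these 4 differences were −0.36 for PLAT, −0.70 for PLAUR, −0.55 for TFPI2 and −0.53 for CD63. The 4 were named for having the smallest p of the list. PRSS2, not among them, had the largest difference of the list (−1.22, limma adjusted p = 0.143).

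Of 24 transcription factors known to act on metalloproteinase promoters, 19 were above background in both groups, and none passed in limma. Before adjustment, p was under 0.05 for 1 higher and 7 lower, against 9.11% higher and 7.67% lower over all genes. The largest differences were those of FOS (−1.12, adjusted p = 0.306) and SNAI2 (−0.75, adjusted p = 0.249). Both met the rule for above background, on all 3 arrays of a group, in control clones only. The knockdown mean was 5.77 for FOS and 6.17 for SNAI2, beside knockdown thresholds of 5.81 to 5.92. Not every knockdown value exceeded its threshold, so the size of these differences is uncertain. The median over all 24 factors was −0.05. SP1, which binds GC boxes, gave −0.39 (SE 0.09, adjusted p = 0.103) with the same sign on all 4 probe sets. The epithelial ETS factor ELF3 gave −0.54 (adjusted p = 0.116) and the AP-1 subunit JUN −0.41 (adjusted p = 0.179). STAT3, a transcription factor activated by cytokines, was the one higher, at 0.58 (adjusted p = 0.189). SP1 gave −0.50, ELF3 −0.49, JUN −0.20 and STAT3 0.45 with the RNA quality covariate.

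Among 15 measured matrix proteins that metalloproteinases cut, 3 fell and 0 rose in limma, against 0.42% of all genes called lower and 0.319% called higher. As this list was chosen with earlier results of these data known, the shares are no test of it. The fibrillar collagen chain COL5A1 fell by 1.29 in log2 units (SE 0.17, adjusted p = 0.0377), the laminin chain LAMB3 by 0.91 (SE 0.10, adjusted p = 0.0311) and the basement membrane chain COL4A2 by 0.68 (SE 0.08, adjusted p = 0.0316). TNC, a matrix glycoprotein of wounds and tumours, gave −0.78 (SE 0.13, adjusted p = 0.0562). The list median was −0.19, over 8 genes above background and 7 above it in neither group. It was −0.67 for the 8 genes above background, of which 7 had a lower mean and 1 a higher. For the 7 genes above it in neither group the median was −0.07. Each of these 3 genes passed in 7 of the 13 alternative fits. All 3 lost the call without knockdown clone 2, without any single control clone, with the replicate block and with the RNA quality covariate. With the last the differences were −1.79 for COL5A1, −1.09 for LAMB3 and −0.73 for COL4A2 (adjusted p from 0.174 to 0.196), and TNC gave −1.14.

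**Figure D5:**
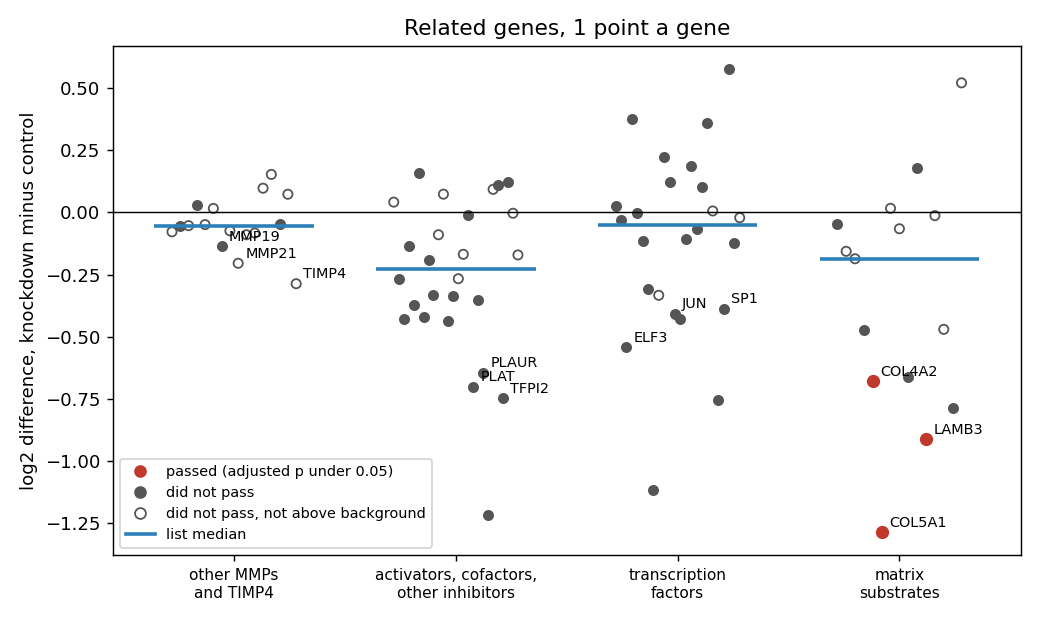
Log2 difference, knockdown minus control (vertical axis), of each gene of 4 lists (horizontal axis) on its brightest probe set, with list medians as blue lines, genes that passed in red and genes above background in neither group as open points. The 3 genes that passed (COL5A1, LAMB3 and COL4A2) are matrix substrates, and the medians run from −0.23 to −0.05.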

How the data were processed

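RNA of 3 WASF3 knockdown and 3 control clones of MDA-MB-231 was amplified with a 3′ kit, labelled with biotin and hybridised to Affymetrix arrays, per the labels' protocols. The deposited values are log2 signals. Per the submitters' processing notes, RMA and Affymetrix Expression Console 1.0 were used. RMA subtracts background, gives all arrays 1 distribution and summarises probes, which hides any change that most transcripts share. Array medians were 5.13 to 5.17. The number of arrays limits the precision.

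Of 54675 probe sets, 62 controls were left out, and 41091 carried 1 gene symbol. Symbols came from the platform annotation, updated through a RefSeq table of GRCh38.p14. Group differences were fitted on all 54613 probe sets with limma 3.58.1 in R 4.3.3 (lmFit and eBayes), two-sided, with Benjamini-Hochberg adjustment over all of them. The fit was tested on simulated data, with 1 spread for both groups and few changed probe sets. There it called 58% of true differences of 1.0, 8% of those of 0.5 and 10% of those of −0.5. These shares do not carry over to the real arrays, where the knockdown clones were the more scattered. A true difference of the sizes reported here can still go uncalled.

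The members and lists were chosen with earlier results of these data known. Named genes were the 10 members, WASF3, up to 4 genes per list (called ones by size, then the smallest unadjusted p), and the 3 genes most alike for 3 members. PRSS2, FOS and SNAI2 were added to these for the size of their differences. Alternatives were a replicate block, eBayes with trend, weights by group, centring, renewed quantile normalization, a filter on dim probe sets, the RNA quality index as a covariate, each clone left out, other ways to represent a gene and other background thresholds. The table held 0 columns from elsewhere. Scanner files were not analysed here.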

Additional observations from a re-analysis of the deposited data

How the results depend on the processing

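The 13 alternative fits gave 253 values for the 20 probe sets, of which 229 kept their direction and side of the threshold, 13 newly passed and 11 turned. Those that turned with the RNA quality covariate were MMP2 1566678_at (−0.033), MMP9 (0.013), TIMP2 231579_s_at (−0.012) and TIMP3 201147_s_at (0.073) and 201149_s_at (0.38). MMP13, at −0.01 as reported, gave 0.013 with centring and 0.013 with renewed quantile normalization, and −0.18 to 0.13 with 1 clone left out. The number of member probe sets that passed, 0 as reported, was 1 with weights by group, 2 with renewed quantile normalization, 3 among probe sets above background (20885 tested, the 3 being MMP14 217279_x_at and 202828_s_at and TIMP2 203167_at), and 0 to 5 with 1 clone left out. It was 2 without knockdown clone 1 and 5 without knockdown clone 3. The median difference of −0.12 became −0.23 with the covariate. The cause was not tested. Over all probe sets 305 passed as reported, 570 with weights by group, 115 with trend, 474 after the filter, 1 with the covariate, 3 to 5 without a control clone, and 1465, 33 and 2493 without knockdown clones 1, 2 and 3. The median was not run with the filter, which removes 5 of the genes, and without probe sets ending in _s_at or _x_at it rests on 8 genes.

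Clones of the same number correlated at −0.07, −0.10 and −0.04 in their deviations from the group means, and none correlated best with its own number. These values gave no sign that the numbers pair the samples. Whether clones of the same number shared a batch was not tested. With the replicate block 0 member probe sets passed and 6 of all, and the median difference stayed at −0.12.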
